A study of Homo sapiens with 6 samples.

Results

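Transcripts of 38 genes whose products are made chiefly by hepatocytes, among them albumin, fibrinogen and cytochromes P450, were counted in every one of 6 RNA-seq libraries whose labels name the triple-negative breast cancer line MDA-MB-231. The genes were taken by symbol, as plasma protein and hepatic enzyme genes with counts in all libraries, and they make up 38 of the 24462 distinct symbols in the files. They were thus chosen by their names and by counts above 0 in all 6 libraries, and their presence is a description, not a result. The lowest count of any of them was 22, for FABP1. Counts in every library did not by themselves set them apart, since 77 of 78 further hepatocyte genes had them too. CYP1A2, the exception, had 0, 2, 2, 3, 2 and 2 counts in the 6 libraries.

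The study compared control cells with ELK3-knockdown cells that received a plasmid. Controls (2 libraries) carried a control retrovirus, with no plasmid recorded. Per the labels, the knockdown cells received 1 µg of the empty vector pLenti-cMyc-DDK (2 libraries, called vector-labelled here) or of the same vector with ELK3 (2 libraries, called ELK3-labelled) by lipofection, and were collected 48 hours later. Contrasts with the controls thus mix the labelled knockdown with plasmid transfection, and the labels do not give the knockdown construct or say whether the knockdown line is 1 clone. Per the labels, all groups share the line, its source and a medium with fetal bovine serum. The labels do not say whether replicates were separate cultures, so the p-values measure the spread between these libraries, which may be technical.

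Libraries held 4884483 to 9131214 counts, with 17976 to 20360 symbols detected. ELK3, an ETS-family transcription factor and the targeted gene, stood at 129 and 124 counts per 1000000 (CPM, scaled by the trimmed mean of M values, TMM) in the control pair, 759 and 697 in the vector-labelled pair, and 20.4 and 22.6 in the ELK3-labelled pair. These levels, and the column headings of the deposited files, go against the labels of both plasmid groups, so every direction below follows the labels as deposited. AXL, a receptor kinase abundant in MDA-MB-231, was at 624 and 587 CPM in the control pair, 14.8 and 12.01 in the vector-labelled pair, and 10.5 and 11.6 in the ELK3-labelled pair. VIM, the mesenchymal filament protein vimentin, was at 2081 and 1922 CPM in the controls and at 364 to 464 CPM in the other 4 libraries. CD44, a surface glycoprotein also abundant in the line, was at 282.1 and 281.7 CPM in the controls and at 27.2 to 42.6 CPM in the rest. AXL, VIM and CD44 were thus high in the controls and lower, though present, in both plasmid groups. The receptor genes ESR1, PGR and ERBB2 did not share 1 pattern. ESR1 was at 16.1 to 24.8 CPM over the 6 libraries, with the controls at 18.8 and 20.9. PGR had 2 and 1 counts in the control pair, 50 and 38 in the vector-labelled pair, and 0 and 6 in the ELK3-labelled pair. ERBB2 was at 41.6 and 36.1 CPM in the controls and at 21.5 to 25.6 CPM in the other 4 libraries. Whether all 6 libraries come from 1 line, and what part these differences between groups have in the results below, was not tested.

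Hepatocytes secrete most of the proteins of blood plasma: carriers such as albumin and transferrin, the apolipoproteins of lipid particles, clotting factors, protease inhibitors and acute-phase proteins. They also hold enzymes for drug oxidation, amino acid breakdown and the urea cycle that few other cells make in quantity. These genes share a set of transcription factors, among them HNF4A and the C/EBP family, whose motifs lie close to many of their start sites, and breast epithelium is not known as a site of their joint expression.

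Promoter sequences of the genes were searched for short motifs of liver transcription factors, and most windows held neither motif. The 250 bases before the annotated start were read from RefSeq (GRCh38.p14) for 28 of the 38 genes, and both strands were searched. The C/EBP core TTGCNNAA occurred on one strand or the other in 10 of 28 windows (35.7%) and in 11.03% of the 27305 genes with a window, and the HNF4 core CAAAGTCCA in 2 of 28 (7.14%) against 0.403%. The motifs were searched separately and may overlap. The windows of albumin and of a pair of fibrinogen chains, among the most abundant of the 38 genes, are shown 5′ to 3′ in the direction of transcription, with the match to the C/EBP core in capitals. In the ALB and FGA windows the core is read on the opposite strand. The windows are at chr4:73404037-73404286 on the plus strand (ALB), chr4:154562730-154562979 on the plus strand (FGB, the first of 2 annotated starts) and chr4:154590743-154590992 on the minus strand (FGA).
ALB: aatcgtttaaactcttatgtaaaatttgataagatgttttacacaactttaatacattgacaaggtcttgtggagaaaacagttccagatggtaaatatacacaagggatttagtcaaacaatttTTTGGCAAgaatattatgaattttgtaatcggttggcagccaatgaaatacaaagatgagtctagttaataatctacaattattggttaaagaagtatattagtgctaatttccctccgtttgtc
FGB: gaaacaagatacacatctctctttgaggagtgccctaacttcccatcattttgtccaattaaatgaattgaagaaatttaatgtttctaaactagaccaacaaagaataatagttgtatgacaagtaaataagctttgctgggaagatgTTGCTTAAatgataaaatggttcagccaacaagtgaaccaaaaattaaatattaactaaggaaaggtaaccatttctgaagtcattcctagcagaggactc
FGA: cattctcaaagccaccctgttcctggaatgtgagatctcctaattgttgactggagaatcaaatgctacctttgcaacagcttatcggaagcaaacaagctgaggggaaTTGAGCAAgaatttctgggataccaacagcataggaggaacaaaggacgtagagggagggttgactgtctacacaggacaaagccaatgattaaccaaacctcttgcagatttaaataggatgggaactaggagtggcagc
The capitals run from 125 to 118 bases before the start in ALB, 101 to 94 in FGB and 141 to 134 in FGA. A match describes the letters and shows no bound factor. The 38 genes lie on 15 chromosomes, and the 3 fibrinogen genes are on chromosome 4 with ALB.

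Together the 38 genes took 1.52% and 1.54% of all counts in the control pair, 1.78% and 1.67% in the vector-labelled pair, and 1.39% and 1.42% in the ELK3-labelled pair. Their summed counts were 77176 and 77375, 118858 and 81327, and 82709 and 129661, so that 1 count in 56 to 72 came from them. Group means were 1.53% ± 0.02 (SD, n = 2), 1.72% ± 0.08 (SD, n = 2) and 1.40% ± 0.02 (SD, n = 2). As shares of the library totals the 3 groups did not overlap, with the vector-labelled libraries highest and the ELK3-labelled lowest. Over TMM effective library sizes the controls (1.61% and 1.66%) and the vector-labelled libraries (1.75% and 1.63%) overlapped, and the ELK3-labelled libraries (1.32% and 1.38%) were still lowest. With 2 libraries against 2 an exact permutation test cannot go below p = 0.333, so this order was not tested. The exact binomial 95% intervals were narrow, 1.506% to 1.527% in the first control and 1.772% to 1.792% in the first vector-labelled library, and cover counting error only. Bulk counts do not tell fewer cells from less RNA per cell, and do not show that liver cells were present. The source of these transcripts was not tested.

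**Figure D1:**
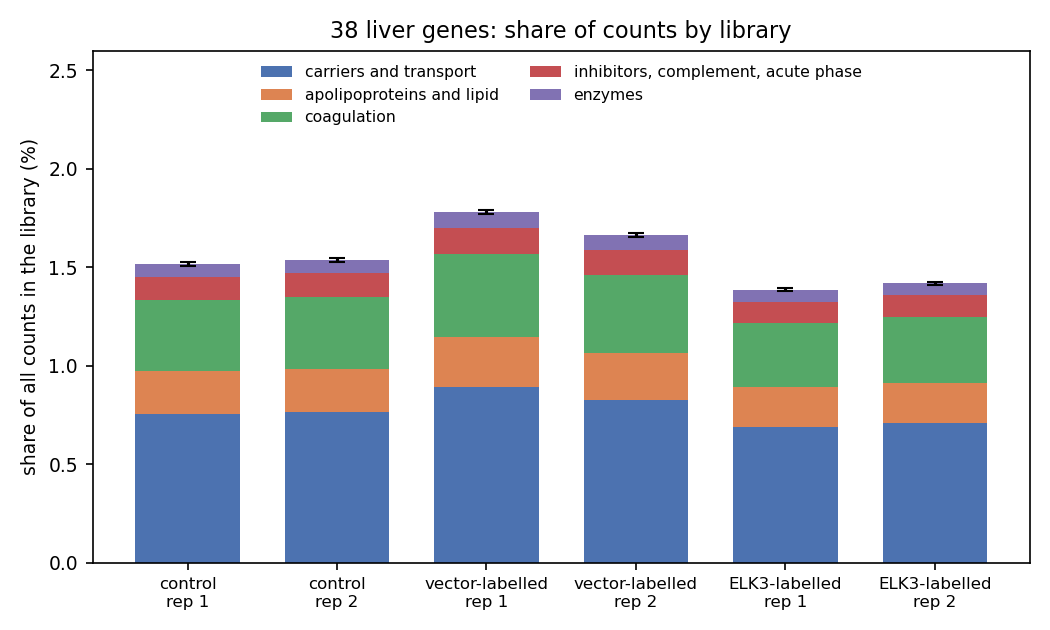
Share of all counts taken by the 38 liver genes in each library (vertical axis, percent), stacked by role, with the exact 95% binomial interval of the sum as an error bar. The bars stand between 1.39% and 1.78%, and each role takes a like part of every bar.

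The mixture within this share was nearly the same in every library. Per 1000 counts of the 38 genes, the 8 carriers held 497.5 to 501.3, the 6 coagulation genes 234.4 to 237.7 and the 8 apolipoprotein and lipid genes 141.6 to 144.3. The 7 inhibitors, complement and acute-phase genes held 75.9 to 79.3 and the 9 enzymes 43.2 to 46.2. ALB alone made up 22.8% to 23.1% of the summed counts of the 38 genes. The kit reads transcript ends, and counts were not divided by length. These parts are parts of counts, and an order of expression was not tested.

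Among the carriers, ALB, the main protein of plasma, had 17804 and 17772 counts in the control pair, 27135 and 18578 in the vector-labelled pair, and 18935 and 29766 in the ELK3-labelled pair. These counts placed it 9th among all genes in both controls, 6th in both vector-labelled libraries and 12th in both ELK3-labelled libraries. HP, haptoglobin, which binds free haemoglobin, had 9365 and 9278, 14524 and 9799, and 9967 and 15697 counts. The ratio of HP to ALB was 0.526 and 0.522 in the control pair, 0.535 and 0.527 in the vector-labelled pair, and 0.526 and 0.527 in the ELK3-labelled pair. All 6 ratios lay inside the exact 95% counting interval of the first control, 0.513 to 0.539. HP has a near-identical neighbour, HPR, and how reads between them were assigned is not given in the sources used here. RBP4, the retinol carrier, held 17.2 and 16.6, 17.6 and 16.9, and 16.4 and 17.4 per 1000 counts of the 38 genes, with overlapping groups. TF (iron transport), AHSG (fetuin-A), TTR (thyroxine transport), HPX (haem binding) and VTN (vitronectin) had highest-to-lowest ratios to ALB of 1.03, 1.05, 1.04, 1.11 and 1.17 over the 6 libraries.

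The fibrinogen chains are built into 1 protein from 3 genes. FGB had 8029 and 8091 counts in the control pair, 12026 and 8260 in the vector-labelled pair, and 8546 and 13535 in the ELK3-labelled pair. FGA stood to FGB at 0.571 and 0.570, 0.582 and 0.597, and 0.571 and 0.566. FGG stood to FGB at 0.425 and 0.427, 0.444 and 0.438, and 0.432 and 0.415. Both ratios were slightly higher in the vector-labelled pair than in the other 4 libraries. For FGA to FGB the single-library counting intervals overlapped, at 0.565 to 0.599 and 0.576 to 0.618 in that pair and 0.550 to 0.592 in the first control. For FGG to FGB the interval of the first vector-labelled library, 0.430 to 0.458, lay above that of the second ELK3-labelled library, 0.402 to 0.428. SERPINC1, antithrombin, held 10.7 and 10.0, 10.9 and 10.99, and 11.2 and 10.6 per 1000 counts of the 38 genes. F2 (prothrombin) differed by 1.09 times between its highest and lowest ratio to ALB. F9, clotting factor IX, was among the 3 lowest genes with 44 and 49, 59 and 50, and 52 and 80 counts, and its ratio to ALB varied by 1.27 times.

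Among the apolipoproteins, APOA2 of high-density lipoprotein had 5832 and 5862, 9156 and 6165, and 6421 and 9786 counts. The ratio of APOA1, the main protein of that particle, to APOA2 was 0.233 and 0.230 in the control pair, 0.236 and 0.228 in the vector-labelled pair, and 0.224 and 0.230 in the ELK3-labelled pair. The groups overlapped. APOB, the scaffold of low-density lipoprotein, held 11.3 and 12.4 per 1000 counts of the 38 genes in the control pair, 11.3 and 11.7 in the vector-labelled pair, and 10.6 and 10.9 in the ELK3-labelled pair, lowest in the last group. APOH and APOC3 varied in their ratio to ALB by 1.02 and 1.04 times, and A1CF, which takes part in APOB mRNA editing, by 1.204 times. AADAC, a lipid esterase, had 44 and 52, 97 and 56, and 55 and 83 counts. FABP1, a fatty acid carrier abundant in hepatocytes, had 29 and 22, 23 and 22, and 30 and 55 counts, the lowest of the 38 genes in every library, and its ratio to ALB varied the most, by 2.18 times.

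Inhibitors, complement and acute-phase genes included ITIH2, a hyaluronan-binding inhibitor chain, with 6.92 and 7.47, 7.19 and 7.05, and 7.42 and 7.15 per 1000 counts of the 38 genes. C3, the central complement protein, held 19.1 and 20.1 in the control pair, 17.2 and 17.8 in the vector-labelled pair, and 17.5 and 17.7 in the ELK3-labelled pair. Both controls were thus above the other 4 libraries. SERPINA1 (alpha-1 antitrypsin), AMBP, CRP (C-reactive protein), A2M and ITIH1 had highest-to-lowest ratios to ALB of 1.12, 1.08, 1.12, 1.10 and 1.18.

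The enzymes stood at a similar level against the plasma proteins in every library. The 9 enzymes had 4.63% and 4.54% of the counts of the 26 plasma protein genes in the control pair, 4.74% and 4.86% in the vector-labelled pair, and 4.67% and 4.56% in the ELK3-labelled pair. CPS1, the first enzyme of the urea cycle, departed from the rest. It had 472 and 486 counts in the control pair, 906 and 649 in the vector-labelled pair, and 597 and 934 in the ELK3-labelled pair, or 2.65% and 2.73%, 3.34% and 3.49%, and 3.15% and 3.14% of the ALB counts. The 2 controls were the lowest and the 2 vector-labelled libraries the highest. Without CPS1 the other 8 enzymes stood at 3.799% to 4.02% of the plasma protein counts. TAT, which breaks down tyrosine, held 1.11 and 1.25, 1.31 and 1.48, and 1.41 and 1.26 per 1000 counts of the 38 genes. CYP2E1 and CYP3A4, both drug-oxidising cytochromes, were in a ratio of 3.83 to 4.57. CYP2C8, ADH1B, ADH4, HPD and TDO2 varied in their ratio to ALB by 1.16, 1.13, 1.40, 1.33 and 1.27 times. CYP3A4, CYP2C8 and ADH1B belong to families with near-identical copies, among which counts may be split.

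**Figure D2:**
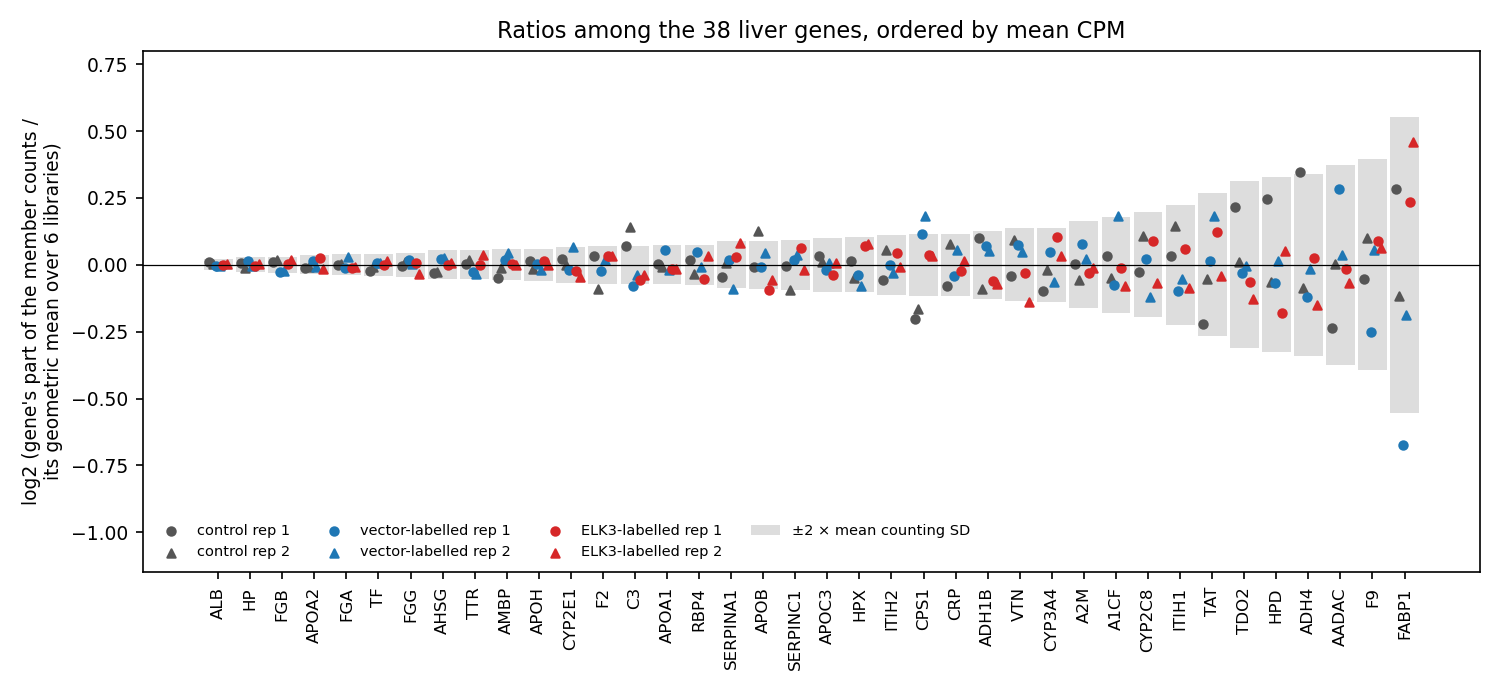
Each gene's part of the summed counts of the 38 liver genes in each library, as log2 of the part over its geometric mean in the 6 libraries (vertical axis), for genes ordered by mean CPM from left to right. Symbols are single libraries and the grey band is 2 times the mean counting SD to either side, within which most points lie. The controls are low for CPS1 and high for C3, and FABP1 at the right has the widest scatter.

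Ratios to ALB were also set beside those of other genes with at least 500 counts in every library, as a description with no test and with no further matching on counts. Of the other 37 genes, 21 had at least 500 counts in every library, a limit that CPS1 missed. For these 21 the highest ratio to ALB over the 6 libraries was 1.02 to 1.16 times the lowest (median 1.06), and 21 of 21 stayed under 1.2 times. Of 1438 other tested genes with at least 500 counts in every library, 65 (4.52%) stayed under 1.2 times, with a median of 1.75 and a maximum of 20.6. Further hepatocyte genes were not left out of these other genes, and the 65 may include some. Over all 37 genes the median was 1.12, with 28 under 1.2 times and 36 under 1.5 times.

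Set against counting error, the composition of the 38 genes gave a chi-square of 1.39 per degree of freedom over the 6 libraries, where 1 is the value of counting error alone. Between replicates it was 1.03 in the control pair, 0.89 in the vector-labelled pair, and 0.62 in the ELK3-labelled pair. Over the summed counts of the 3 groups it was 2.19. The same measure over all 15386 genes tested was 53.0 over the 6 libraries, 2.27 to 2.94 between replicates and 128 over groups. No p is given, since genes are not independent replicates. CPS1 made up 12.2% of the chi-square of the 38 genes, C3 11.4%, APOB 5.61% and FABP1 4.87%, and leaving out CPS1 gave 1.25.

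The ratios were then tested for each gene in edgeR's quasi-likelihood model, with each library scaled by its summed counts of the 38 genes and p-values adjusted by Benjamini-Hochberg over all genes tested. This scaling takes out any change that the 38 genes share, so few calls among them follow in part from the scaling. The share of all genes called is given beside them, but the other genes did not set the scaling. Between vector-labelled and control libraries 1 of 38 ratios was called at 0.05, against 71.1% of all genes (35% higher). It was CPS1, which was higher by 0.33 ± 0.10 on the log2 scale (SE, 95% interval 0.12 to 0.54, adjusted p = 0.00504, n = 2 per group). C3 did not pass there, with -0.16 (interval -0.35 to 0.02, edgeR adjusted p = 0.101).

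Between ELK3-labelled and control libraries 0 of 38 ratios were called by edgeR or by limma-voom, 1 had an unadjusted p under 0.05 in edgeR, and 63% of all genes were called (42.9% higher). CPS1 was at 0.22 (interval 0.01 to 0.43, edgeR adjusted p = 0.0627). Between ELK3-labelled and vector-labelled libraries 1 of 38 was called, against 60.8% of all genes (44.1% higher). It was FABP1, higher in the ELK3-labelled pair by 0.81 ± 0.31 (SE, interval 0.16 to 1.45, edgeR adjusted p = 0.0279), with 22 to 55 counts per library. That call was lost without the first vector-labelled or the second ELK3-labelled library. A ratio that missed the threshold is not thereby shown to be constant: the interval was -0.17 to 0.17 for APOA2 between ELK3-labelled and vector-labelled libraries, and -0.43 to 0.43 for ADH4.

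On the usual scale, with libraries scaled by TMM, the liver genes had fold changes close to each other. ALB was at 3723 and 3822 CPM in the control pair, 3986 and 3717 in the vector-labelled pair, and 3011 and 3165 in the ELK3-labelled pair. The controls and the vector-labelled libraries overlapped, and both ELK3-labelled libraries were below the other 4. The level in the ELK3-labelled pair was lower than in the controls by 1.22-fold (log2 -0.29 ± 0.08, edgeR adjusted p = 0.00154) and than in the vector-labelled pair by 1.25-fold (log2 -0.32 ± 0.08, edgeR adjusted p = 0.000603). These 2 comparisons share the ELK3-labelled libraries. With library totals in place of TMM the first was -0.13 and no longer passed (edgeR adjusted p = 0.12, and 9.6e-05 to 0.12 over 14 alternatives, DESeq2 and limma-voom among them), while the second passed in 14 of 14.

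Between vector-labelled and control libraries, 1 of 38 genes rose and 0 fell, against 37% and 35.3% of all genes tested (72.3% in all). The gene was CPS1, with 98.7 and 104.5 CPM in the controls and 133.1 and 129.9 CPM in the vector-labelled pair (log2 0.37 ± 0.09, edgeR adjusted p = 0.000598). DESeq2 and limma-voom each called 1 gene as well, and 1 gene had an unadjusted p under 0.05 in edgeR. The median log2 fold change of the 38 genes was 0.05 and that of all genes 0.05, while the SD was 0.14 among the liver genes and 1.71 among all. With library totals in place of TMM, 18 of 38 rose (share of all genes not given here), with a median of 0.18. The median of all genes moved to the same 0.18. The medians parted most with the filter on low counts: without it they were -0.0039 for the 38 genes and 0.19 for all, and with 10 CPM in 2 libraries 0.15 and 0.02. Smaller gaps, in both directions, came with libraries left out. The medians were 0.02 and 0.07 without the first control, -0.02 and 0.02 without the first vector-labelled library, and 0.08 and 0.05 without the second.

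Between ELK3-labelled and control libraries, 30 of 38 fell and 0 rose, against 30.8% and 31.8% of all genes (62.6% in all). The median was -0.28 (SD 0.10) beside 0.02 (SD 1.43) over all genes. Named genes lay close to each other: HP at -0.28, FGB at -0.29, APOA2 at -0.27, FGA at -0.29, FGG at -0.30, RBP4 at -0.28, ITIH2 at -0.27 and SERPINC1 at -0.21, with APOB lowest of the named at -0.42. With library totals, of these only APOB still passed. The SERPINC1 call was lost in 7 of 14 alternatives, that of ITIH2 in 4 and that of RBP4 in 2. The 8 that did not pass were HPX, F9, FABP1, AADAC, HPD, TAT, CYP3A4 and CPS1, the last at -0.06 ± 0.09. This count depended on scaling and on 1 library, and the shares of all genes called under those settings are not given here. With library totals 3 of 38 fell (median -0.12, with all genes at 0.18), and without the first ELK3-labelled library 15 fell.

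Between ELK3-labelled and vector-labelled libraries, 30 of 38 fell and 0 rose, against 29.6% and 30% of all genes (59.6% in all), with a median of -0.33 (SD 0.15) beside -0.02 (SD 1.08). By role, 7 of 8 carriers, 7 of 8 apolipoprotein and lipid genes, 5 of 6 coagulation genes, 6 of 7 inhibitors and acute-phase genes and 5 of 9 enzymes fell. CPS1 fell by 0.44 on the log2 scale, TAT by 0.38 and AADAC by 0.55. The CPS1 call held in 14 of 14 alternatives, while that of TAT was lost in 7 (edgeR, DESeq2 and limma-voom adjusted p from 0.013 to 0.19) and that of AADAC in 5 (adjusted p from 0.013 to 0.33). Without the first vector-labelled library AADAC was at -0.34. FABP1 was at 0.49 ± 0.31 and did not pass (edgeR adjusted p = 0.181), and the others that did not pass were HPX, F9, ADH4, HPD, TDO2, ITIH1 and CYP2C8. An absolute log2 fold change over 1 was seen in 0 of 38 genes in each of the 3 comparisons, and in 6754, 4656 and 3641 of the 15386 genes tested. Since the genes were picked with earlier results of these libraries known, these counts describe them and are not independent evidence of a direction.

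**Figure D3:**
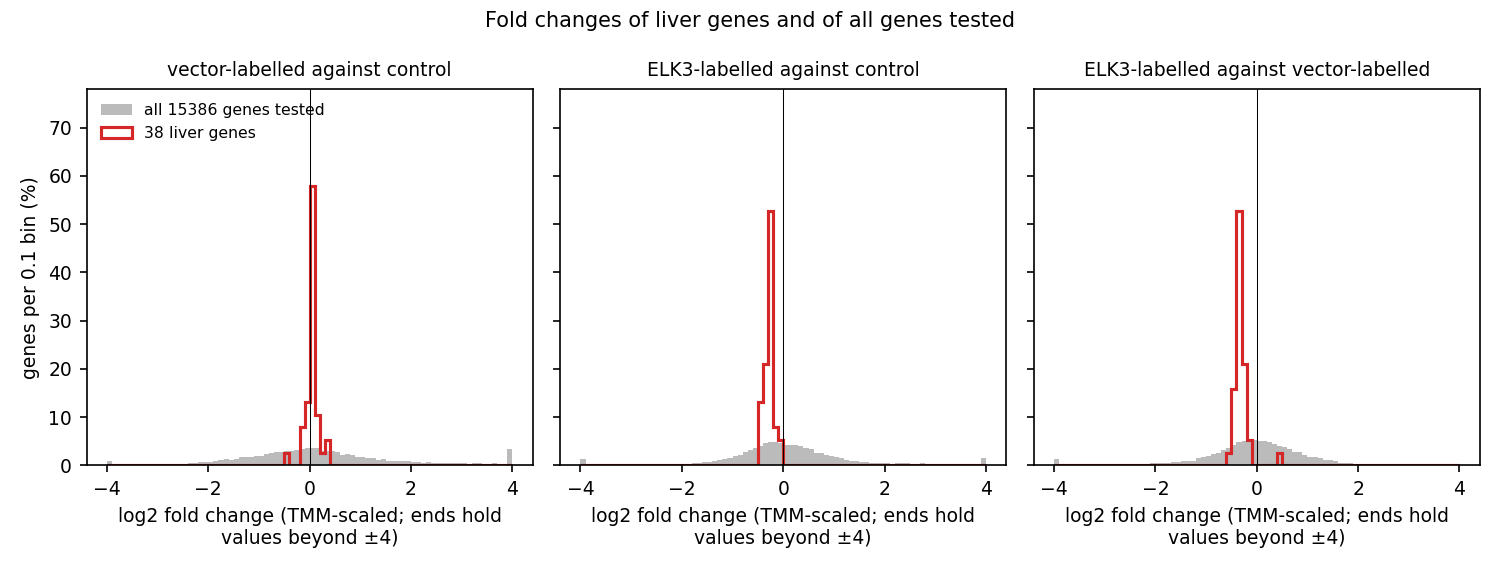
Distribution of TMM-scaled log2 fold changes (horizontal axis) of the 38 liver genes (red outline) and of all 15386 genes tested (grey) in the 3 comparisons, as percent of genes per bin of 0.1. The liver genes form a narrow peak with an SD of 0.10 to 0.15, centred at 0.05, -0.28 and -0.33, inside a broad distribution with an SD of 1.08 to 1.71.

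Other liver genes were present beside the 38. Of 78 further hepatocyte genes, 77 had counts in every library and 76 were tested. They held 345.8 and 344.2 counts per 1000 counts of the 38 genes in the control pair, 334.0 and 335.9 in the vector-labelled pair, and 332.6 and 334.6 in the ELK3-labelled pair. PCK1, which controls glucose synthesis, held 23.4 and 23.0, 23.6 and 22.9, and 23.0 and 22.9. HRG, histidine-rich glycoprotein, held 20.3 and 20.2, 20.2 and 20.5, and 21.2 and 20.9. For PCK1 the groups overlapped, and HRG was slightly higher in the ELK3-labelled libraries. Of the 76, 42 fell under TMM from control to ELK3-labelled and 42 from vector-labelled to ELK3-labelled libraries, while 1 and 0 rose, beside 30.8% and 29.6% of all genes lower and 31.8% and 30% higher. From control to vector-labelled libraries 2 rose and 3 fell, beside 37% of all genes higher and 35.3% lower.

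A few hepatocyte genes left the common ratio. Scaled by the counts of the 38 genes, edgeR called 7, 4 and 2 of 76 in the 3 comparisons, beside 71.1%, 63% and 60.8% of all genes. F10, clotting factor X, had 18 and 23 counts in the control pair, 134 and 102 in the vector-labelled pair, and 46 and 75 in the ELK3-labelled pair (log2 2.15 ± 0.25 between the first pair of groups, adjusted p = 1.4e-08). ASGR1, the asialoglycoprotein receptor subunit, had 8 and 12, 72 and 40, and 16 and 33 counts. SLCO1B3, a bile acid transporter, had 270 and 220, 172 and 108, and 105 and 174 counts, and FBP1, an enzyme of glucose synthesis, 149 and 143, 99 and 74, and 47 and 91. F10 and ASGR1 were thus lowest in the control pair, and SLCO1B3 and FBP1 highest there relative to the liver genes. SAA1, an acute-phase gene with a near-identical copy in SAA2, was lower in both plasmid groups, at -0.23 ± 0.09 in each comparison with the controls (edgeR adjusted p = 0.0246 and 0.028). The composition of the 78 genes had a chi-square of 2.57 per degree of freedom over the 6 libraries and 1.10 to 1.14 between replicates.

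Markers of the other cells of liver and blood were counted as well. Of 10 Kupffer cell genes, which mark the macrophages of the liver, 10 had counts in every library, together 4.91 to 5.53 per 1000 counts of the 38 genes, and edgeR called 0 of 8 tested in any comparison on that scale, with 0 at an unadjusted p under 0.05. C1QA, a complement chain of macrophages, had 97 and 90, 149 and 105, and 112 and 147 counts. The red cell and platelet list held 9.82 and 9.64, 9.68 and 10.0, and 9.55 and 9.37 per 1000, and HBB, beta-globin, had 543 and 497, 778 and 563, and 542 and 840 counts. The summed level thus stayed within 9.37 to 10.0 in all 6 libraries. For PF4 and PPBP, the platelet markers, no library had more than 9 counts.

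Lymphocyte genes held 11.4 to 12.8 per 1000, with 14 of 16 counted in every library. PTPRC, the pan-leukocyte phosphatase CD45, had 140 and 156, 246 and 169, and 153 and 227 counts and was not called on the liver-gene scale. CCL5, a chemokine of T and NK cells, had 283 and 260, 396 and 311, and 324 and 443 counts. Of the 11 tested, 1 was called, IL7R, with 51 and 61, 14 and 17, and 9 and 18 counts. Liver sinusoid and stellate genes held 7.82 to 10.1 per 1000. In that list STAB1, an endothelial scavenger receptor, was higher in both plasmid groups than in the control pair, by 0.65 and 0.47 on the log2 scale, and the collectin COLEC11 was higher in the vector-labelled pair than in the controls by 1.93.

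Markers of bile duct cells, which belong to the liver, and of other organs were scarce, or stood at other levels in the controls than in the plasmid groups. Lists of 10 genes each for pancreas, intestine, kidney and lung held 0.06 to 0.71 counts per 1000 counts of the 38 genes, and SFTPC, the lung surfactant gene, had 0 counts in all 6 libraries. PRSS1, the pancreatic trypsinogen, had 1 count in 1 library and 0 in the others. Heart genes held 0.19 and 0.28 in the controls and 2.64 to 2.79 in the other 4 libraries. Bile duct genes held 17.0 and 15.1 in the control pair, 6.82 and 6.70 in the vector-labelled pair, and 9.50 and 8.60 in the ELK3-labelled pair. On the liver-gene scale edgeR called 2 of 7 tested higher and 5 lower between vector-labelled and control libraries, beside 71.1% of all genes. The brain list held 18.1 and 19.1 in the controls and 10.2 to 10.8 in the rest, most of the difference being in MBP, which had 817 and 880, 230 and 180, and 286 and 427 counts. Skeletal muscle, placenta and testis lists held 0.16 to 0.72, 0.23 to 0.93 and 1.44 to 2.11. The heart, bile duct and brain sums of the controls thus lay apart from those of the other libraries. So did the sum of the 78 hepatocyte genes, by a smaller step, with exact 95% counting intervals from 340.0 up in the controls and up to 339.9 in the rest. The difference between lists was not tested.

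**Figure D4:**
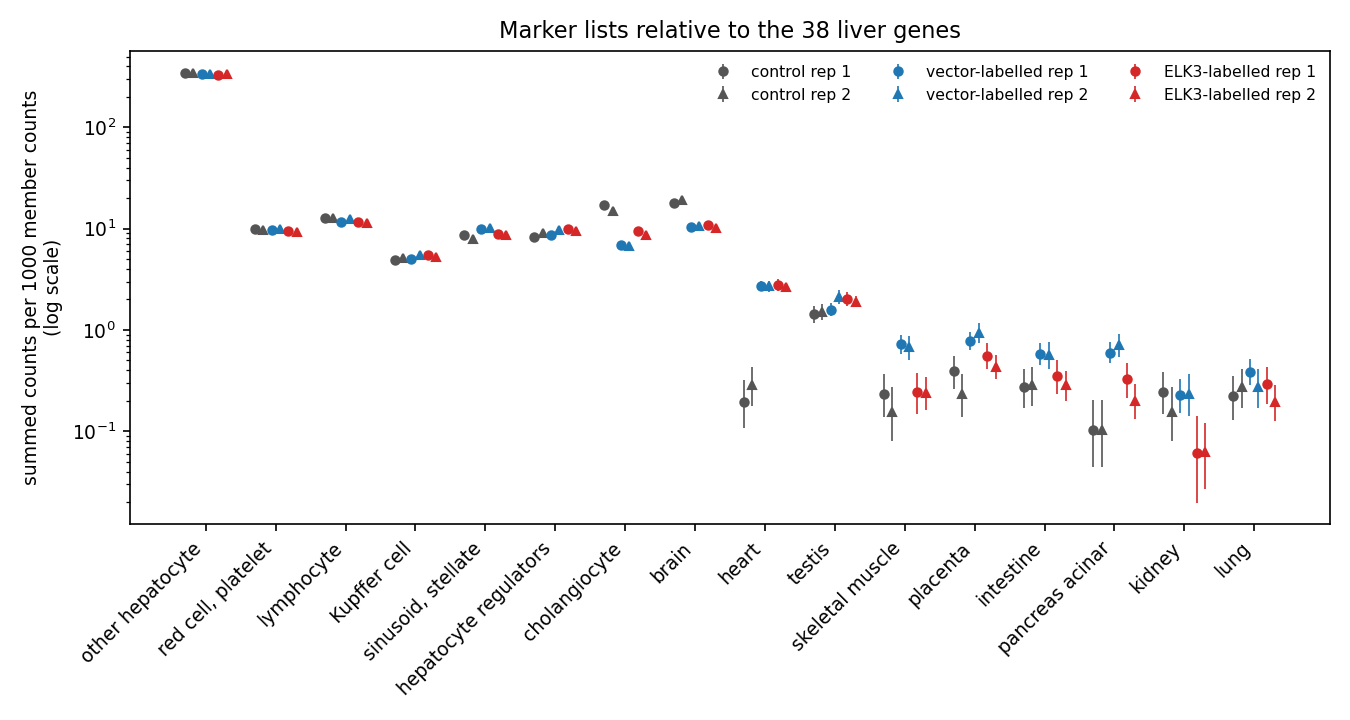
Summed counts of each marker list per 1000 counts of the 38 liver genes (vertical axis, log scale) in each library, with exact 95% counting intervals as error bars. The other hepatocyte list stands at 345.8 and 344.2 in the controls and 332.6 to 335.9 in the rest, the Kupffer cell list lies between 4.91 and 5.53, and the cholangiocyte, brain and heart lists show wider gaps between the controls and the other libraries.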

How the data were processed

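RNA was sequenced from 6 libraries made from 500 ng of total RNA with a Lexogen QuantSeq kit, which reads transcript ends, per the labels' protocols. The deposited values are raw counts per gene symbol. Bowtie2, edgeR and the hg19 genome are named in the submitters' processing notes without versions or roles, and the counting tool, strand setting and annotation are not given in the sources used here. Each file has 25737 lines. Lines sharing a symbol (1561 lines of 286 symbols) were summed, and each of the 38 genes has 1 line. Groups follow the labels.

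Genes passing filterByExpr (15386) were fitted in R 4.3.3 with edgeR 4.0.16 (TMM, robust quasi-likelihood, a mean per group over all 6 libraries). Tests were two-sided, with Benjamini-Hochberg adjustment across all genes tested and a threshold of 0.05. A second fit replaced TMM by the summed counts of the 38 genes. DESeq2 1.42.0 and limma 3.58.1 were alternatives. Sums and intervals were computed in Python 3.11.15 with scipy 1.17.1 and pandas 2.3.3. Intervals are exact, at 95%. On simulated data for ELK3-labelled against vector-labelled libraries (15386 genes), the fit recovered 105 of 107 genes with a set log2 change of 1 and 93 of 93 with one of 2. False calls were 10 under TMM and 9 under the liver-gene scaling. Few genes were changed in the simulation. It did not test changes as small as those of the 38 genes, or scaling where most genes are called. Values in every library are printed for the 5 liver genes of highest mean CPM, the fibrinogen chains, those with a called ratio, the 3 lowest and 1 of middle rank per role, and of other lists for up to 4 genes each by mean CPM and for hepatocyte genes with the largest called fold. C3, AXL, VIM, CD44, ESR1, PGR, ERBB2, SFTPC, PRSS1, SAA1, IL7R, COLEC11 and CYP1A2 were named besides, after their values were seen. So were the further genes named with a ratio or as not passing. The 38 genes, the marker lists and these rules were chosen with earlier results of these data known. Bulk counts per library of 4884483 to 9131214 mean that 3 counts, which is what a zero still allows, stand for 0.329 to 0.614 counts per 1000000. Replicate numbers were checked and do not pair the libraries. Alternatives were other scalings, filters, tools, a replicate block and each library left out in turn, and, chosen after seeing the data, leaving out CPS1, or CPS1 and C3.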

Additional observations from a re-analysis of the deposited data

How the results depend on the processing

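Counts of called genes among the 38 depended on scaling. The share of all genes called under each alternative is not given here, so the counts below do not show whether the 38 genes stand apart. Between vector-labelled and control libraries 18 were called with library totals and 5 with a filter of 10 CPM in 2 libraries, and 1 in each of the other 12 alternatives. Between ELK3-labelled and control libraries 3 were called with library totals, 22 with DESeq2 and 15 without the first ELK3-labelled library (15 to 30 over the libraries left out in turn). Between ELK3-labelled and vector-labelled libraries 20 to 34 were called over 14 alternatives. The SD of the fold changes of the 38 genes stayed at 0.11 to 0.19, 0.09 to 0.13 and 0.07 to 0.19 in the 3 comparisons. With the liver-gene scaling, 1 and 0 ratios were called in the first 2 comparisons in all 12 alternatives. In the third, 0 were called with the filter of 10 CPM, where FABP1 was not tested, and 0 to 1 without each library in turn. Under that scaling the calls among all genes were 6597 higher and 3090 lower between ELK3-labelled and control libraries, and 6787 higher and 2570 lower between ELK3-labelled and vector-labelled libraries, in place of 4891 and 4742, and 4615 and 4559, under TMM. Scaled by TMM effective size, the summed share was 1.64% in the controls, 1.69% in the vector-labelled and 1.35% in the ELK3-labelled libraries, and leaving repeated symbols out of the total gave 1.56% in the controls. The composition chi-square per degree of freedom was 1.25 to 1.56. Between ELK3-labelled and control libraries 4 of the 38 genes, uncalled under TMM, were above 0 with library totals, namely CPS1 at 0.10, TAT at 0.048, CYP3A4 at 0.0017 and FABP1 at 0.15. FABP1 was at 0.0016 with no filter, and -0.18 to 0.18 over the libraries left out in turn, above 0 without the first control (0.18) and the first ELK3-labelled library (0.11). For the scaling alternatives the change of denominator is the cause by construction, and for the rest the cause was not tested. The labels give every group replicate numbers 1 and 2, but same-numbered libraries did not deviate together (correlations of -0.08, 0.04 and -0.01 over genes). With a replicate block 1, 29 and 30 of the 38 genes were called, and 1, 0 and 1 ratios. Depth limits the lowest genes: FABP1, with 22 to 55 counts, could not show a change smaller than its wide interval.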

Other observations

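Genes of fetal liver and liver tumours did not share 1 pattern. AFP, the fetal counterpart of albumin, had 130 and 147 counts in the control pair, 180 and 134 in the vector-labelled pair, and 133 and 207 in the ELK3-labelled pair, 0.663% to 0.827% of the ALB counts, and edgeR did not call its ratio to the 38 genes in any comparison. CYP3A7, the fetal cytochrome of the CYP3A family, had 65 and 52, 75 and 67, and 68 and 103 counts and was likewise not called. GPC3, a cell-surface proteoglycan, had 9 and 8 counts in the control pair, 181 and 133 in the vector-labelled pair, and 181 and 279 in the ELK3-labelled pair. Relative to the 38 genes GPC3 was higher than in the controls by 3.82 and 4.28 on the log2 scale.

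Transcription factors of hepatocytes differed among themselves as well. HNF4A had 42 and 40, 57 and 57, and 42 and 57 counts, and its ratio to the 38 genes was not called. CEBPA, which is also expressed outside the liver, had 63 and 57, 144 and 121, and 175 and 281 counts and was higher than in the controls by 0.78 and 1.46 on that scale. FOXA2, a factor of endoderm, had 144 and 142, 68 and 48, and 67 and 119 counts and stood at -1.67 and -1.09 on the log2 scale against the controls.

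CYP7A1, the first enzyme of bile acid synthesis, had 2 to 6 counts in every library and was not tested.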
